A study of Drosophila melanogaster with 2 samples.

Results

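The genes of the vacuolar ATPase (V-ATPase) were examined in a chromatin immunoprecipitation and sequencing (ChIP-seq) study of the transcription factor Atf-2 in Drosophila melanogaster embryos. They were taken as the protein-coding genes whose symbol begins with Vha in the Release 6 annotation, which gave 33 genes of the 13945 on the major chromosome arms. The study has 1 group, made up of biological replicates 2 and 3. Each consisted of whole embryos of mixed sex, 0 to 24 h old, from a transgenic line that stably expresses Atf-2 with GFP at its C-terminal end, and the chromatin was recovered with an anti-GFP antibody. Both replicates come from the same line, and what drives the transgene is not given in the sources used here. Control samples and untagged embryos were not analysed here, so no comparison between conditions was made. A weak signal in all cells and a strong one in a few cells cannot be told apart in whole embryos.

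The V-ATPase is a rotary proton pump that acidifies lysosomes, endosomes, the Golgi apparatus and secretory vesicles, and in insects it also energises the plasma membrane of epithelia such as the Malpighian tubule. Its peripheral sector, V1, hydrolyses ATP, and its membrane sector, V0, carries the protons across. Many subunits have several genes in Drosophila, of which usually one is used in most tissues and the others are known from few, often the male germ line. Atf-2 is a basic leucine zipper factor downstream of the stress kinase p38. The bases of its known target, the cAMP response element (CRE), are TGACGTCA.

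Each list gives regions with a summit and a signal, which is the value of the authors' peak caller and has no unit that can be compared between lists. Peaks that passed the irreproducible discovery rate (IDR), a measure of agreement between replicates, numbered 3265, with a smallest signal of 84.6. The list called on the pooled replicates and each replicate's own list had 30000 regions with background included. At each V-ATPase promoter peak in the IDR list, the rank was the same as in the pooled list. Being in the IDR list thus followed pooled signal there, and does not show that a peak ranked alike in both replicates. Vha68-1, at rank 850 in replicate 2 and 22960 in replicate 3, was in it. VhaPPA1-1, at ranks 3549 and 2690, was not. A gene was counted when a summit lay within 500 bp of any of its annotated transcription start sites (TSSs). Read depth is unknown, so no counting interval can be given for a signal.

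The sequences at 5 summits are shown first, because a motif match or its absence there is one of the measurements below. They are those of 4 of the 5 IDR peaks with a summit outside annotated exons, and that of Vha13, a peak just under the IDR threshold whose replicates differed. The matching stretches at Vha26 and VhaPPA1-1, also just under the threshold, held none of the motifs sought and are not shown, nor are that of Vha16-1, with TGACG at 8 bp, and summits in exons. The sequences were read from the RefSeq Release 6 genome, run 5′ to 3′ along the strand of the V-ATPase gene, and stop where an annotated exon begins. Capitals mark a short CRE (TGACG, in either orientation) or an M1BP site (GGTCACACT, in either orientation), the letters bound by the promoter factor M1BP. The summit is base 76 in all but the VhaM9.7-b stretch, where it is base 31.

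Vha55, minus strand, chr3R:12627830-12627927: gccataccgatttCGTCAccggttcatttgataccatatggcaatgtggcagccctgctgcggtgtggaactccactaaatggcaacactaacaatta
Vha68-1, minus strand, chr2L:13004115-13004265: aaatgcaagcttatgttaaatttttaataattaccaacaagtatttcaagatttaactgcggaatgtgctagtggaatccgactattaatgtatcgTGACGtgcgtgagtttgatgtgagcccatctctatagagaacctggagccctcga
Vha68-2, plus strand, chr2L:12974075-12974225: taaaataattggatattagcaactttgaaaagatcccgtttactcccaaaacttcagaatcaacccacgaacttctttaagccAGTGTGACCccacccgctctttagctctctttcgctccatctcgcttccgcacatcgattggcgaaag
VhaM9.7-b, plus strand, chr3L:21539448-21539553: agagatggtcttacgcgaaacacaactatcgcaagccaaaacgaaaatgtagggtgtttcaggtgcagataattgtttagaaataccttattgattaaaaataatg
Vha13, minus strand, chr3R:19644427-19644577: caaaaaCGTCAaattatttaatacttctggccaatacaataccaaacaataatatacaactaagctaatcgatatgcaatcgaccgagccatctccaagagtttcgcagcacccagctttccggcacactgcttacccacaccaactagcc

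One further stretch of 30 bases, just inside the transcript of Vha55 and in its 5′ UTR, is shown because it holds the one CRE found at a V-ATPase peak. Capitals mark the CRE, the E-box CACGTG that overlaps it by 2 bases, and a separate short CRE. A further short CRE, at 12627787 to 12627791, runs past the start of the stretch and is not marked.

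Vha55, minus strand, chr3R:12627761-12627790: gacgggtcatgTGACGgCACGTGACGTCAc

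Of the 33 V-ATPase genes, 9 (27.3%) had an IDR summit at a promoter. Among all 13945 protein-coding genes 14.9% did. The 9 were Vha68-1, Vha68-2, Vha55, Vha44 and Vha36-1 of V1, and Vha100-2, Vha16-1, Vha16-5 and VhaM9.7-b of V0. They were spread over 7 of the 14 kinds of subunit, 4 of the 8 of V1 and 3 of the 5 of V0. Their median signal was 139.5, the same as the median of the 2081 genes with such a summit. With each summit given only to the gene with the nearest TSS the count was 5 of 33 (15.2%), against 11.0% of all genes. In the 1632 strongest IDR peaks it was also 5 of 33, against 8.28% of all genes. No test was made over the genes, since the members were chosen with earlier results of these data known.

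Most of the counted genes were the main gene of their subunit. Of the 14 sole or broadly used genes, 7 had an IDR promoter summit, and of the 19 other paralogues Vha68-1 and Vha16-5 (10.5%) did. Among all protein-coding genes the share was 14.9%, so the other paralogues lay not far below it. Which paralogue is broadly used was taken from general knowledge of the family and not from these files. A pooled summit of any rank was near 12 of the 14 broadly used genes and 6 of the 19 others, against 51.1% of all protein-coding genes. The median of the strongest pooled signal, with genes without a summit set to 0, was 90.8 for the broadly used genes, 0 for the other paralogues and 24.1 for all protein-coding genes. Under the nearest TSS alone, 4 of the 14 broadly used genes and 1 of the 19 others had one, against 11.0% of all genes. In the 1632 strongest IDR peaks the groups were closer, with 3 of 14 broadly used genes (21.4%) and 2 of 19 others (10.5%), against 8.28% of all genes. Within 250 bp the counts were 5 of 14 and 1 of 19, against 11.8% of all genes.

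**Figure D1:**
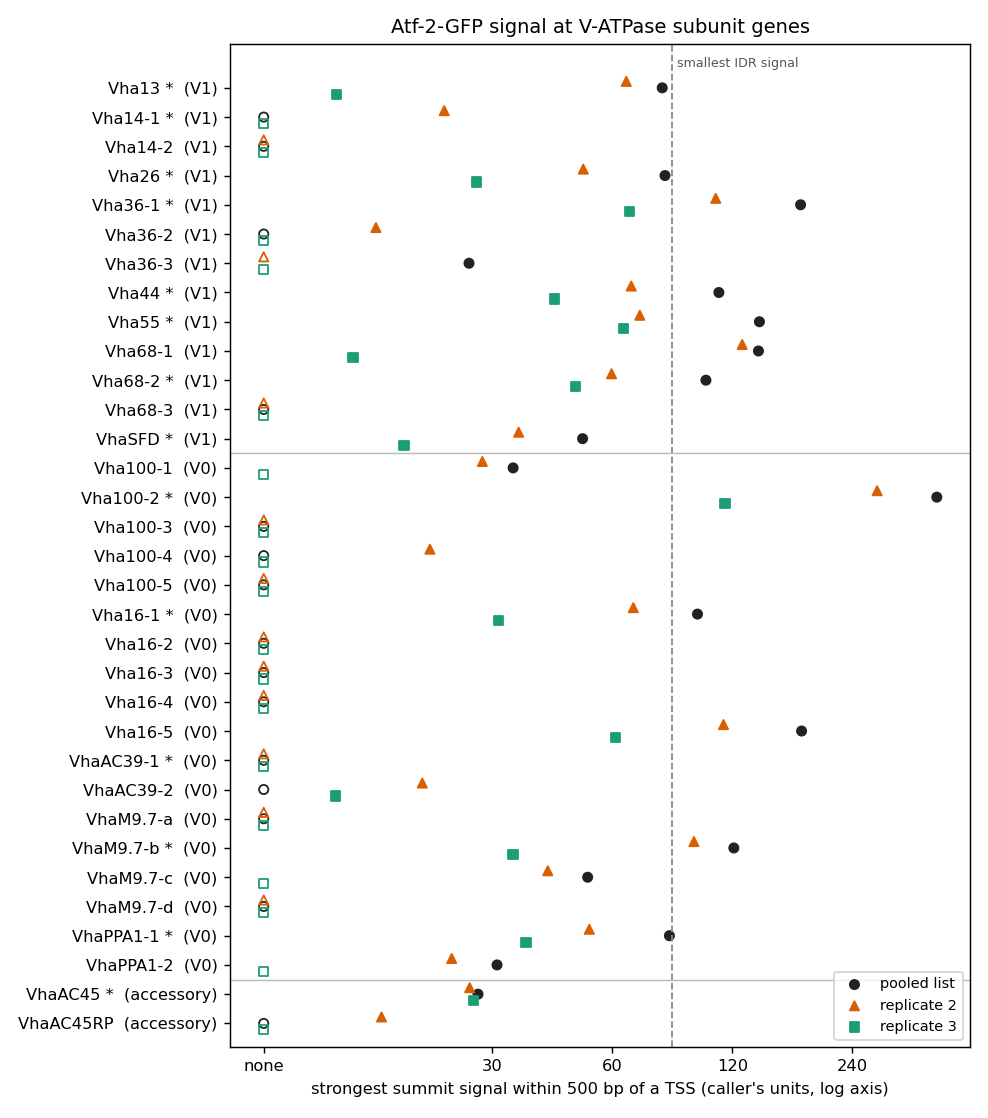
Signal of the strongest summit within 500 bp of a TSS, for each of the 33 V-ATPase genes (rows, V1 above V0 above accessory proteins) in the pooled list, replicate 2 and replicate 3, on a log axis. An asterisk marks the sole or broadly used gene of a subunit, open symbols at the left mark genes with no summit in that list, and the pooled points of 9 genes lie to the right of the dashed line at the smallest IDR signal of 84.6.

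The sectors were set side by side without a test. In V1 5 of 13 genes (38.5%) had an IDR promoter summit and in V0 4 of 18 (22.2%), against 14.9% of all genes. The 2 accessory genes had none. V0 has 13 paralogues beyond the broadly used gene of each subunit, and V1 has 5. Among the broadly used genes alone the sectors were close within 500 bp, with 4 of 8 in V1 and 3 of 5 in V0. Within 250 bp Vha16-1 was the only broadly used V0 gene counted, beside Vha36-1, Vha44, Vha55 and Vha68-2 of V1. With the nearest gene only, it was again the only one, beside Vha44, Vha55 and Vha68-2. Counting only the nearest gene left 4 of 13 in V1 and 1 of 18 in V0, against 11.0% of all genes. Within 250 bp the counts were 5 of 13 and 1 of 18, against 11.8% of all genes. In the 1632 strongest IDR peaks they were 3 of 13 and 2 of 18, against 8.28% of all genes.

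**Figure D2:**
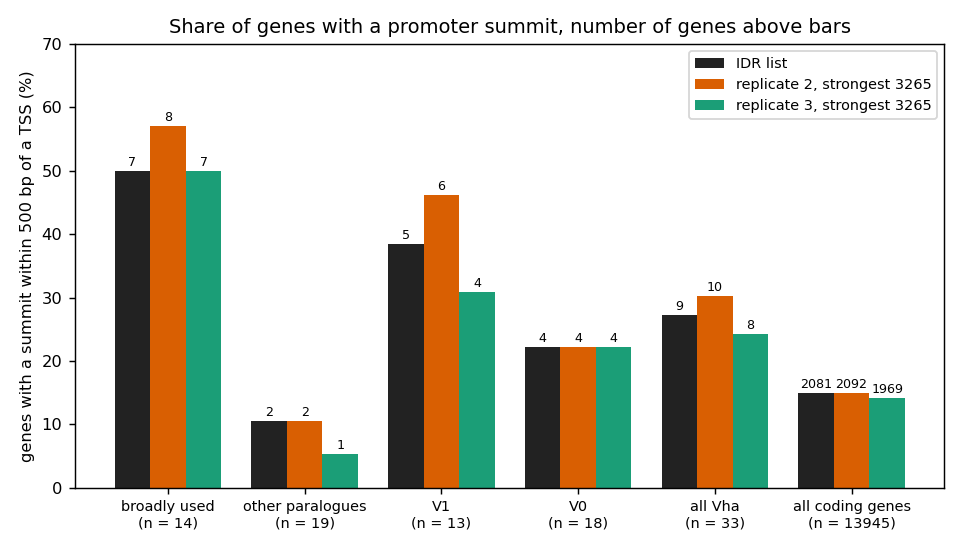
Share of genes with a summit within 500 bp of a TSS, in percent, for groups of V-ATPase genes and for all protein-coding genes, in the IDR list and in the strongest 3265 regions of each replicate. Numbers above the bars count genes. The bars of the broadly used genes stand for 7, 8 and 7 of 14 genes in the 3 lists and those of the other paralogues for 2, 2 and 1 of 19, while all protein-coding genes stand at 14.9%, 15.0% and 14.1%.

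The replicates were closer for strong regions than for regions of any rank. In the strongest 3265 regions of replicate 2, 10 V-ATPase genes (30.3%) had a promoter summit, against 15.0% of all genes. In the same number of regions of replicate 3, 8 (24.2%) had one, against 14.1% of all genes. Replicate 2 alone added Vha13, and replicate 3 alone added VhaPPA1-1 and lost Vha68-1 and Vha16-1. Summits of any rank were near 22 V-ATPase genes (66.7%) in replicate 2, against 50.6% of all genes. In replicate 3 they were near 15 (45.5%), against 48.9% of all genes. At any rank the family thus lay above the share of all genes in replicate 2 and close to it, slightly below, in replicate 3.

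The catalytic A subunit has 3 genes, all on chromosome 2L. Vha68-2, the broadly used one, had a summit at 12974150, which lies 172 bp upstream of its outermost TSS in intergenic sequence. Replicate 2 gave it a signal of 59.7, replicate 3 one of 48.5 and the pooled list one of 103. This summit has an M1BP site 12 bp away, seen in the sequence above. Vha68-3 begins 178 bp beyond the end of Vha68-2 and had no summit of any list within 1000 bp of its TSS.

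Vha68-1, which lies 22162 bp beyond Vha68-2, was the least reproducible of the IDR promoter peaks of the family. Its summit at 13004190, 83 bp upstream of the TSS, had a pooled signal of 139.5. In replicate 2 the signal was 127, at rank 850, and in replicate 3 it was 13.4, at rank 22960. The ratio of replicate 2 to replicate 3 was 9.48, the highest among the 3254 IDR peaks with a region in both replicates. The next highest ratio was 8.18, and the median was 1.93. Only 4 IDR peaks had a lower rank in replicate 3. The same summit lies within 500 bp of a TSS of mTor, which encodes the TOR kinase.

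**Figure D3:**
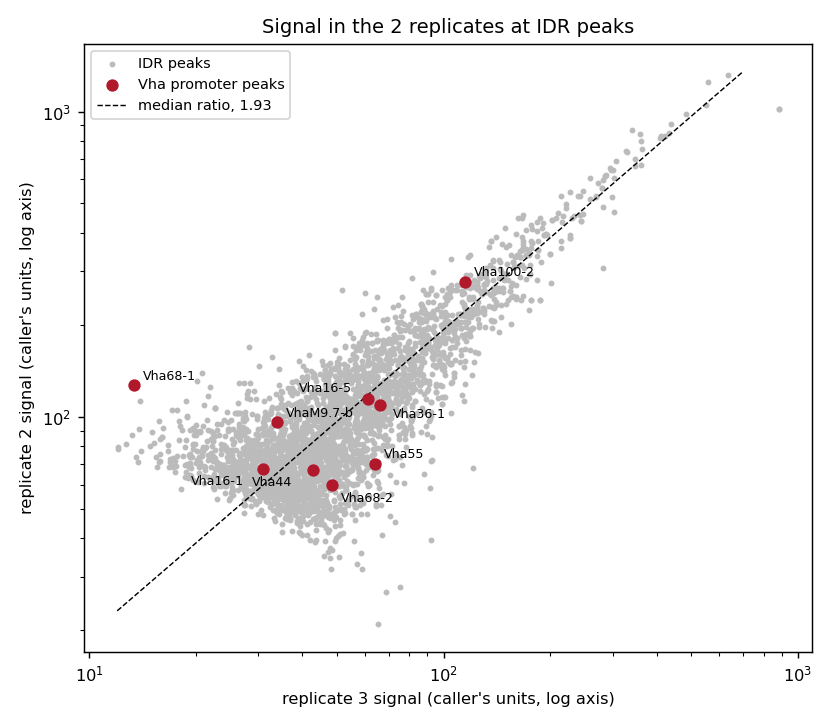
Signal of the overlapping region in replicate 2 against that in replicate 3, both on log axes, for 3254 IDR peaks (grey) and the 9 V-ATPase promoter peaks (red). The dashed line is the median ratio of 1.93. Vha68-1 stands far above the line at 127 in replicate 2 and 13.4 in replicate 3, and the other 8 lie within the cloud of peaks.

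Subunit B, which binds nucleotide without being the main catalytic site, is encoded by Vha55 alone. Its summit at 12627852 on chromosome 3R was the closest to a TSS among the 9, 23 bp upstream. Replicate 2 gave it 70.3, replicate 3 gave it 63.9 and the pooled list 140.3. It was rank 916 in replicate 3 and rank 2321 in replicate 2. The ratio of the replicates was 1.10, and 94.9% of IDR peaks had a higher or equal one. The summit also lies within 500 bp of a TSS of Snx3, which encodes a sorting nexin of endosomes.

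Vha55 was the V-ATPase gene whose peak window of 100 bp on each side held a CRE. The site, at 12627762 to 12627769, lies 60 bp downstream of the outermost TSS and 48 bp upstream of the next one, and its centre is 86 bp from the summit. A CRE was in 10 of the 1616 IDR promoter peaks (0.619%). Vha55 was also the one V-ATPase gene of 33 with a CRE in its promoter window, from 250 bp upstream to 50 bp downstream of a TSS. Of all 13945 genes 101 (0.724%) had one there. The CRE and the E-box occurred together in 1 of the 1616 promoter peaks, that of Vha55, and in the promoter windows of 5 of the 13945 genes. CACGTG is the centre of the CLEAR element of lysosomal genes, which TFEB binds in mammals and Mitf binds in Drosophila. A match describes these letters and is not a measured site.

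Subunit C, which links the sectors and comes off when they separate, is encoded by Vha44 on chromosome 2R. Its summit at 16336696 had 66.9 in replicate 2, 42.9 in replicate 3 and 111 pooled. The rank was 2511 in replicate 2 and 1976 in replicate 3. The summit lies 59 bp upstream of Vha44 and in the 5′ UTR of the divergent gene Hmgs, which encodes an enzyme of the mevalonate pathway. The full CLEAR core TCACGTGA has its centre 14 bp from this summit. That core was in 4 of the 1616 IDR promoter peaks (0.248%) and, counted by gene, in the promoter windows of 28 of 13945 genes (0.201%). Vha44 and Vha68-2 were the 2 V-ATPase genes among those 28.

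Subunit D forms the rotor shaft and has 3 genes. Vha36-1, the broadly used one, had a summit at 15541346 on 2R that reached 109 in replicate 2, 66.1 in replicate 3 and 178 pooled. This was rank 1127 in replicate 2 and 844 in replicate 3. The summit is 89 bp upstream of Vha36-1 but 17 bp from a TSS of the divergent CG8187, in whose 5′ UTR it lies. Vha36-3 had a weak pooled summit of 26.2 in its coding exon, 353 bp downstream of a TSS, with none in either replicate. Vha36-2 had a summit in replicate 2 alone, with a signal of 15.3 at rank 29996 of 30000.

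The peripheral stalk subunits E and G fell just short of the IDR list. Vha26, the gene of subunit E, had a pooled signal of 81.3 at rank 3453, with 50.7 in replicate 2 and 27.4 in replicate 3. Its summit was 244 bp upstream of its TSS and 60 bp from that of noi, a splicing factor gene. Vha13, the gene of subunit G, had a pooled signal of 80.0 at rank 3549. In replicate 2 its signal was 65.0 at rank 2636 and in replicate 3 it was 12.2 at rank 27415, a ratio of 5.32 that 0.799% of IDR peaks reached. VhaPPA1-1, a V0 gene, was the third just outside, with 83.4 pooled at rank 3337. In the strongest 3600 pooled regions, an alternative chosen after these values were seen, 12 V-ATPase genes had a promoter summit, against 16.1% of all genes.

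The rotor subunit F and the regulatory subunit H had no IDR promoter summit. VhaSFD, the gene of subunit H, had a pooled signal of 50.5 with the summit in its coding exon, 182 bp downstream of the TSS. Summits in the same exon had signals of 27.5 in replicate 2 and 18.0 in replicate 3. The strongest replicate 2 summit of VhaSFD, with 34.9, was instead intergenic, 29 bp upstream of the TSS. The pooled list also had a weaker summit upstream of the TSS, and replicate 3 had none there. At Vha14-1, the broadly used gene of subunit F, an IDR peak with a signal of 289 lay 861 bp from the TSS, the nearest IDR summit beyond 500 bp at any V-ATPase gene. It lies past the end of the gene and 267 bp from the TSS of Gmppa. Closer to the TSS of Vha14-1 there were weak summits in replicate 2 alone, with signals of 22.7 at 7 bp and 16.3 at 199 bp. Vha14-2 had none within 1000 bp.

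The strongest V-ATPase summit belonged to a gene of subunit a, which forms the channels that protons pass through. At Vha100-2 on chromosome 3R the signal was 391 pooled, 277 in replicate 2 and 115 in replicate 3. The ranks were 181, 149 and 259, so that it was high in both replicates. The summit at 18397237 is 309 bp upstream of the inner of the 2 TSSs of Vha100-2. It is downstream of the outermost TSS and so lies within the span of Vha100-2 itself. The summit is also in the 5′ UTR of Vti1b, a SNARE gene, and 242 bp from the TSS of that gene. With the outermost TSS alone Vha100-2 was not counted. Vha100-4, which lies 517 bp beyond the end of Vha100-2, had only a replicate 2 summit of 20.9. Vha100-1, the neuronal paralogue, had 33.8 pooled and 28.3 in replicate 2, with none in replicate 3. Vha100-3 and Vha100-5 had no summit within 500 bp in any list.

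The proteolipid ring of subunit c has 5 genes. Vha16-1, the broadly used one, had a summit at 6633189 on 2R, 99 bp upstream of its outermost TSS, with 98.1 pooled, 67.7 in replicate 2 and 31.0 in replicate 3. That was the lowest pooled signal of the 9. A second IDR peak, with a signal of 88.1, lay in an intron of Vha16-1, 1690 bp from its nearest TSS. Vha16-5, on 2L, had a stronger summit, with 179 pooled, 114 in replicate 2 and 61.1 in replicate 3. That summit is 306 bp upstream of Vha16-5 and 4 bp from the TSS of CG12299, in whose 5′ UTR it lies. Vha16-2, Vha16-3 and Vha16-4 had no summit of any list within 500 bp.

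VhaPPA1-1, of subunit c″, had replicate signals of 52.5 in replicate 2 and 36.4 in replicate 3, and its summit was intergenic, 105 bp upstream of the TSS. Its neighbour VhaPPA1-2 had a pooled signal of 30.8 in its coding exon and none in replicate 3. Subunit e, a small membrane protein, has 4 genes, and VhaM9.7-b had the one IDR promoter summit among them. The signal there was 121 pooled, 96.1 in replicate 2 and 33.8 in replicate 3. The summit at 21539478 on 3L was the farthest inside the distance used, 384 bp upstream of VhaM9.7-b, and lay 31 bp from the TSS of COX8, which encodes a subunit of cytochrome c oxidase. VhaM9.7-c had 52.0 pooled and 41.3 in replicate 2, with no promoter summit in replicate 3. VhaM9.7-a and VhaM9.7-d had none in any list.

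Subunit d, which joins the ring to the central shaft, had no promoter summit in the pooled list. VhaAC39-1, on the X chromosome and the broadly used gene, had no summit within 500 bp in any list, the one broadly used gene of which this was true. Its nearest pooled summit had a signal of 23.4 and lay 596 bp away, in a coding exon of CG2930. VhaAC39-2 had 20.0 in replicate 2, 177 bp upstream of its TSS. In replicate 3 it had 12.1 at another summit, 111 bp downstream in its coding exon. Of the accessory genes, VhaAC45 had 27.6 pooled and 26.3 in replicate 2, at a summit 220 bp from its TSS and nearer to that of Gnptab. In replicate 3 it had 26.9 at another summit, 4 bp from its TSS. VhaAC45RP had a single summit of 15.8 in replicate 2. ATP6AP2, an accessory gene outside the symbol rule, had a summit in replicate 2 alone, with a signal of 24.3.

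All 9 IDR promoter summits lay upstream of the nearest TSS of the V-ATPase gene, by 23 to 384 bp. Among all genes with an IDR promoter summit 1820 of 2081 (87.5%) did. At Vha100-2 the nearest TSS is the inner one, and the summit lies within the gene. The median distance was 99.0 bp for the 9 and 143 bp for all. At 7 of the 9 genes the summit was also within 500 bp of a TSS of another coding gene, and for all genes with an IDR promoter summit the share was 58.3%. In 4 of the 9 the other gene was the nearer one: CG8187 at Vha36-1, Vti1b at Vha100-2, CG12299 at Vha16-5 and COX8 at VhaM9.7-b. Of those, 3 are V0 genes. The GC content of the windows of 100 bp on each side was a median of 41.3% for the 9 summits, from 34.8% to 57.2%, and 35.8% for all.

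**Figure D4:**
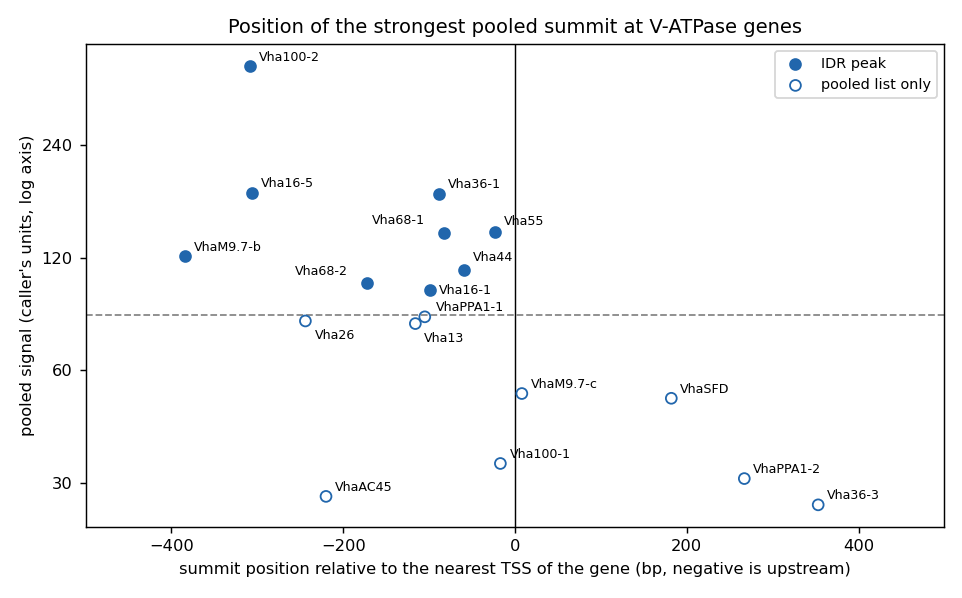
Position of the strongest pooled summit relative to the nearest TSS of the gene, in bp, against its pooled signal on a log axis, for the 18 V-ATPase genes with a pooled summit within 500 bp. Filled points are IDR peaks and the dashed line is the smallest IDR signal of 84.6. All 9 filled points lie at negative positions, from 23 to 384 bp upstream, and the 4 points at positive positions have signals of 52.0 or less.

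The short CRE was the most frequent of the motifs sought at the V-ATPase peaks. TGACG, on either strand, was in 5 of the 9 windows (Vha36-1, Vha55, Vha68-1, Vha16-1 and Vha16-5) and in 253 of the 1616 promoter peaks (15.7%). Over all 33 genes it was in 14 promoter windows (42.4%), against 29.8% of all genes. Of those 14 genes, 7 had an IDR promoter summit. The E-box CACGTG was in the windows of Vha44 and Vha55, and in 2.85% of promoter peaks. In the promoter windows it was found at 5 V-ATPase genes (15.2%) and 5.34% of all genes. Of those 5 V-ATPase genes, 3 had an IDR promoter summit. The M1BP site was in 1 of the 9 windows, that of Vha68-2, and in 2.41% of promoter peaks. The DRE (TATCGATA), the letters bound by DREF, the GAGA site (GAGAGAG) and the AP-1 site (TGANTCA) were in none of the 9, and in 7.24%, 4.39% and 4.46% of promoter peaks. The TATA box TATAAA was at Vha36-1 and Vha16-1, and in 32.0% of promoter peaks. In the promoter windows the DRE was at 6.06% of V-ATPase genes against 10.2% of all genes. The AP-1 site was at 6.06% against 8.27%. The GAGA site was at 12.1% against 9.09%, the M1BP site at 12.1% against 6.78% and the TATA box at 54.5% against 51.3%. The short CRE is part of the CRE, and the E-box part of the CLEAR core, so these counts overlap.

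Genes that act with the V-ATPase were read in the same way. Of 4 genes for its assembly or regulation, mtd, which encodes a TLDc-domain protein, had an IDR promoter summit, with 276 pooled, 187 in replicate 2 and 88.1 in replicate 3. Rbcn-3A had 34.3 in the pooled list, Rbcn-3B had 13.2 in replicate 3 alone, and Mitf had 23.4 in replicate 2 alone. Of 16 genes for lysosomal proteins 3 (18.8%) had an IDR promoter summit: the hexosaminidase gene Hexo2 (389.7), the palmitoyl-protein thioesterase gene Ppt1 (137) and the cathepsin gene CtsB (118). Of 12 genes for TORC1 control at the lysosome 3 did: Lamtor3 (172), Rheb (114) and RagA-B (95.7). Of 6 genes for endosomal ion transport only Nhe3 (184) did. The signals in brackets are pooled ones, and the share of all protein-coding genes was 14.9%.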

How the data were processed

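ChIP-seq was done on 2 biological replicates of one group of Atf-2-GFP embryos. The analysis began from 4 peak lists on build dm6. The deposited readmes record that a control and the reads of 1 replicate, or of both for the pooled list, went into calling, and that the IDR list was drawn from the other 3. The signal of each region is the deposited value of the authors' peak caller. Regions were ranked by it within a list. Ratios of replicate 2 to replicate 3 signals are also given, beside the median ratio of IDR peaks, since no scaling between lists was applied. Which aligner and caller were used is not given in the sources used here. Lists on dm3 were not used here.

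Summits were set against the Ensembl release 115 annotation of Release 6 in Python 3.11.15 with numpy 2.4.6, pandas 2.3.3 and matplotlib 3.10.9. All 3265 IDR peaks were rows of the pooled list. A gene was counted when any TSS of its protein-coding transcripts had a summit at most 500 bp away, and the strongest such summit gave its signal. One summit can count for several genes. Regions of different lists were matched by an overlap of at least 1 bp, taking the one of highest signal. Motifs were sought on both strands within 100 bp of a summit, and from 250 bp upstream to 50 bp downstream of each TSS. The gene assignment was tested on simulated summits.

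No test was made, because genes are not replicates and there is 1 group of 2 samples. The members and lists were chosen with earlier results of these data known. Every Vha gene is accounted for, with position and replicate values for those with an IDR promoter summit. Of each further list, at most 4 genes with such a summit are named, with Rbcn-3A, Rbcn-3B and Mitf added after their values were seen. The assignment of genes to sectors and the choice of the broadly used paralogue come from general knowledge. Alternatives changed the distance, the TSSs, the assignment, the threshold, the replicate and the paralogue choice.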

Additional observations from a re-analysis of the deposited data

How the results depend on the processing

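The counts moved with the gene a summit was given to, the threshold and the distance. With each summit given only to the nearest gene, 5 V-ATPase genes had an IDR promoter peak in place of 9, of which 1 was in V0, 4 were broadly used and 1 was another paralogue, against 11.0% of all genes. In the 1632 strongest IDR peaks 5 did, with 3 in V1, 2 in V0, 3 broadly used and, as before, 2 other paralogues, against 8.28% of all genes. Within 250 bp, where 11.8% of all genes were counted, the count was 1 for V0 and 1 for the other paralogues, because 3 of the V0 summits lie more than 250 bp away. A replicate was left out by taking the strongest 3265 regions of the other one, with no peaks called anew. This gave 8 to 10 genes in all, 4 to 6 in V1, 4 in V0, 7 to 8 broadly used and 1 to 2 others. The share of all genes was 14.1% without replicate 2 and 15.0% without replicate 3. These lists are the ones used to compare the replicates above, so they add no further check. Without replicate 2 the other paralogues had 1 in place of 2, since Vha68-1 was lost. The median signal was 48.5 without replicate 2 and 96.1 without replicate 3, in each case on the scale of a single list. No other alternative moved a count by more than 1.5 times. No paired analysis was possible because there is only 1 group. Depth is unknown, and it limits what weak summits can show.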
